A study of Mus musculus with 20 samples.

Results

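Intercalated cells are the acid-base cells of the collecting duct and connecting tubule. In the acid-secreting type A cell a vacuolar proton pump sends acid into the urine while the exchanger encoded by Slc4a1 returns bicarbonate to the blood. In the type B cell the exchanger pendrin, encoded by Slc26a4, secretes bicarbonate. The transcription factor Foxi1 is needed for both cell types to form. The 9 genes described here were chosen by symbol as a marker set of these cells, and all 9 were found among the 55822 genes of the count table. They comprise the regulator Foxi1, the pump subunits Atp6v1b1, Atp6v0d2, Atp6v1g3 and Atp6v0a4, the exchangers Slc4a1, Slc26a4 and Slc4a9, and the ammonia channel Rhcg.

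The study sequenced polyadenylated RNA of whole kidney from male C57BL/6J mice, an inbred strain, aged 8 weeks, in 4 labelled groups of 5. Control mice received phosphate-buffered saline (PBS), and treated mice received puberulic acid, a tropolone compound made by moulds, at 1 mg per day. Each was dosed 6 times, once a day, and killed on day 7. Dosing was by gavage or intraperitoneal injection, and which animals had which is not given. The other 2 groups received a normal or a toxic lot of the supplement Choleste-Help at 1000 mg per day, but the names of 10 columns do not show which lot they hold, and these columns are not analysed here.

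Totals ran from 18409877 to 24705587 estimated counts per library, and no member had fewer than 63.3 counts in any library. Levels are given as CPM, depth-scaled counts on library sizes corrected by trimmed mean of M-values (TMM). After a level, ± is the SD over the 5 animals of a group. Across the 16266 genes tested, 34.2% were called higher and 31.1% lower with puberulic acid (edgeR's quasi-likelihood test, Benjamini-Hochberg adjusted p under 0.05), and the median log2 fold change was 0.05. Scaling to total counts raised that median to 0.56, so the directions below are relative to TMM scaling. In bulk kidney RNA, fewer intercalated cells and less RNA per cell cannot be told apart.

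Most of these intercalated cell transcripts were lower in the puberulic acid kidneys. Of the 9 genes, 7 were called lower, where 31.1% of all tested genes were, and none was called higher. Their median log2 fold change was -1.18. The levels of 6 genes lay lower in every treated animal than in any control, against 24.0% of all tested genes. Atp6v0d2 and Slc4a1 were not called. Puberulic acid replicate 1 had the highest level of its group for 8 of the 9 genes, and replicate 4 the lowest for 8 of the 9. Without replicate 1 all 9 genes were called lower, against 32.5% of the genes tested in that fit, with a median log2 fold change of -1.42. With total-count scaling 5 members were called lower (Atp6v1b1, Atp6v0a4, Slc26a4, Slc4a9 and Rhcg), where 15.5% of tested genes were, and Atp6v0d2 was called higher, as 56.4% of tested genes were.

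**Figure D1:**
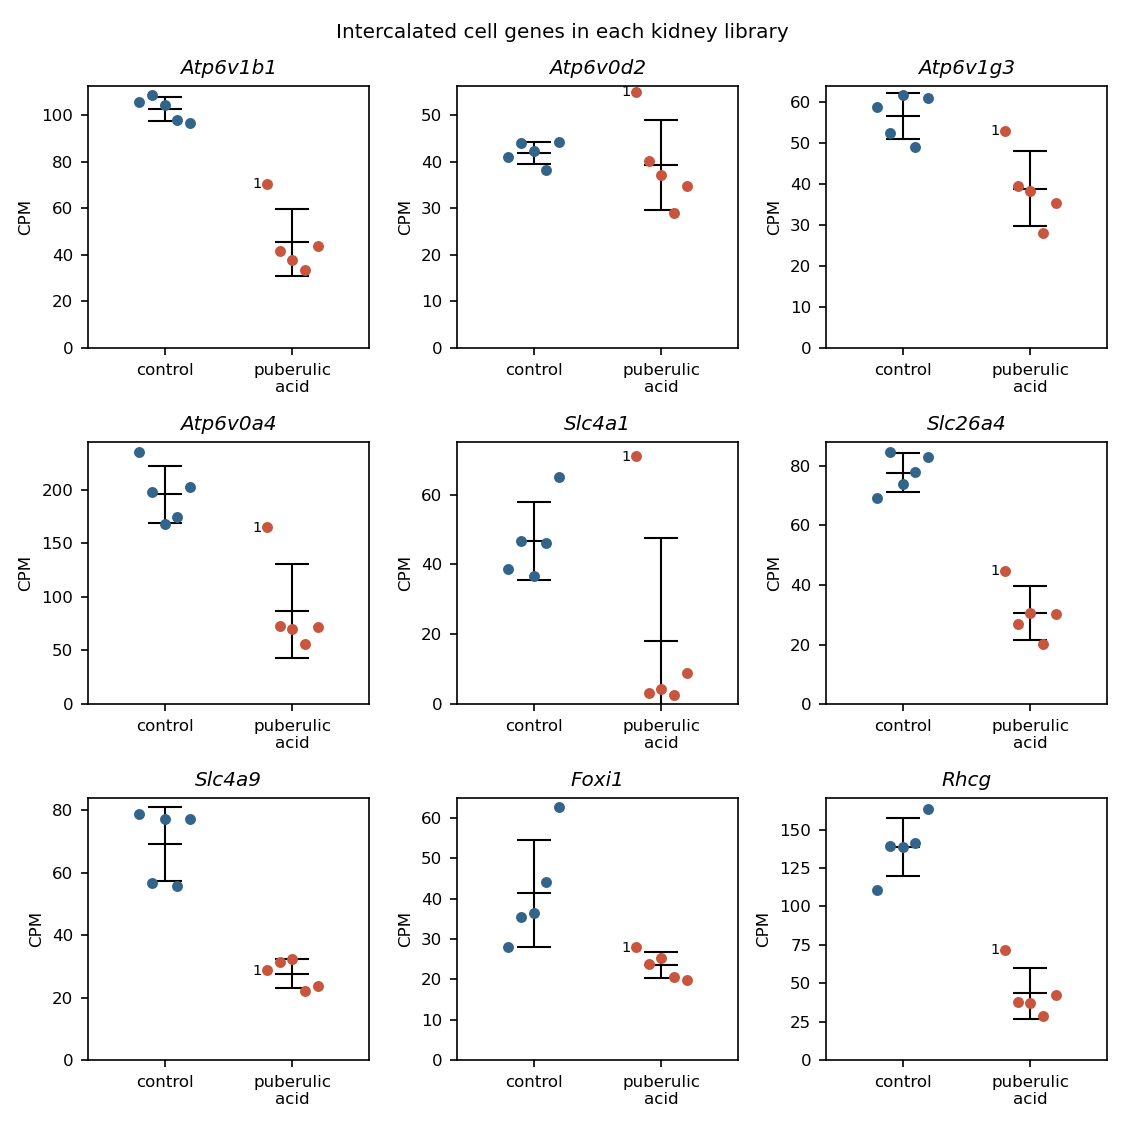
CPM of each gene (vertical axes, from 0) in the 5 control and 5 puberulic acid libraries; points are animals, the long mark is the mean and the bars are ± SD (the lower bar of Slc4a1 runs below 0 and is cut off). Puberulic acid replicate 1, marked 1, lies above the other treated animals in 8 of the 9 panels, and for Slc4a1 it lies above every control.

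The start-site regions of 6 members were taken from RefSeq (build GRCm38.p6), each running from 250 bases before the start of the gene to 50 after it. Those of the other members were not searched. Foxi1 is a forkhead factor, so these windows were searched on both strands for the forkhead core TGTTTA, which 13.4% of 32851 windows of the same length hold. Of the 6 members, 1 held it: Atp6v1b1, with the match 98 bases before the start. Its window is shown with the match in capitals, beside those of Slc26a4 and Rhcg, which were also called lower and hold no match to these letters. A match is a string of letters only, and binding was not measured here.
Atp6v1b1, chr6:83742767-83743066, + strand: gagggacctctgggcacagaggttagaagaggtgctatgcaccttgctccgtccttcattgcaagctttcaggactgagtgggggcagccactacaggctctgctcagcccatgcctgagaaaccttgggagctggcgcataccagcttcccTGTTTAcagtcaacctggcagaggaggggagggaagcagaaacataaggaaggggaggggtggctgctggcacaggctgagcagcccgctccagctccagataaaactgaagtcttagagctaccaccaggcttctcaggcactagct
Slc26a4, chr12:31559935-31560234, - strand: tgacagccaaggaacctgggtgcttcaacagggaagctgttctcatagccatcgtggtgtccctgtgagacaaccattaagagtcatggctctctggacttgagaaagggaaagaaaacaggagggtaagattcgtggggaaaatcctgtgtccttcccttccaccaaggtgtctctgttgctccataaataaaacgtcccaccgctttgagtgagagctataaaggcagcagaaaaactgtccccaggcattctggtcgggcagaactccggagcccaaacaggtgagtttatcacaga
Rhcg, chr7:79617608-79617907, - strand: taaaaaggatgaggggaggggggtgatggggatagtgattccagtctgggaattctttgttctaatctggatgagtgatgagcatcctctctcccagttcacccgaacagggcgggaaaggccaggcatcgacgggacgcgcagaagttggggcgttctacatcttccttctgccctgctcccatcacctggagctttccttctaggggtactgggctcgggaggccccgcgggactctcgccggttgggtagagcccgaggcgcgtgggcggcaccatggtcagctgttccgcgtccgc

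Foxi1 (ENSMUSG00000047861), the regulator of the set, was at 28.03, 35.5, 36.5, 44.2 and 62.9 CPM in control replicates 1 to 5. In puberulic acid replicates 1 to 5 it was at 27.94, 23.8, 25.3, 20.7 and 19.9 CPM. The groups touched but did not overlap: the lowest control and the highest treated animal differed by less than the spread within either group. Mean Foxi1 fell from 41.4 ± 13.3 to 23.5 ± 3.30 CPM. Its log2 fold change was -0.81 ± 0.19 (SE; adjusted p = 0.00262). With total-count scaling the log2 fold change was -0.31 and Foxi1 was not called (adjusted p = 0.161).

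Atp6v1b1 (ENSMUSG00000006269) encodes the B1 subunit of the catalytic head of the pump. Its level in control replicates 1 to 5 was 105, 109, 104, 97.9 and 96.7 CPM, a narrow range. With puberulic acid it was 70.2, 41.7, 37.7, 33.3 and 43.7 CPM. All treated animals were below all controls, and replicate 1 stood between the other treated animals and the controls. The mean treated level was 44.2% of the control mean, and the log2 fold change was -1.18 ± 0.17 (SE, adjusted p = 7.92e-05).

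Atp6v0a4 (ENSMUSG00000038600) encodes the a4 subunit of the membrane sector, which proximal tubule cells also carry. It was at 235, 198, 168, 174 and 202 CPM in the controls and at 165, 73.0, 70.1, 55.5 and 71.6 CPM with puberulic acid. Replicate 1 came close to the lowest control, and the other 4 treated animals were far below it. The log2 fold change was -1.17 ± 0.26 (SE, adjusted p = 0.00173), and it was -1.56 without replicate 1. The 7 listed proximal tubule markers were all called lower, against 31.1% of all tested genes, with a median log2 fold change of -4.96 and a summed level of 7594 to 12422 CPM in controls and 288 to 928 CPM in treated animals. The part of proximal tubule cells in the Atp6v0a4 difference was not tested.

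Atp6v1g3 (ENSMUSG00000026394) encodes the kidney form of the stalk subunit G. Its control values were 58.8, 52.5, 61.6, 48.9 and 61.0 CPM, and its treated values were 53.0, 39.5, 38.2, 28.0 and 35.4 CPM. The groups overlapped through replicate 1 alone. The log2 fold change was -0.54 ± 0.15 (SE, adjusted p = 0.00617), and with total-count scaling it was -0.03 and not called (adjusted p = 0.84).

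Atp6v0d2 (ENSMUSG00000028238) encodes the d2 subunit, which macrophages and osteoclasts also use. It was at 41.0, 43.9, 42.2, 38.2 and 44.2 CPM in controls and at 55.0, 40.2, 37.2, 29.0 and 34.8 CPM with puberulic acid. The treated animals lay on both sides of the controls, with replicate 1 above all of them. The log2 fold change was -0.09 ± 0.14 (SE, adjusted p = 0.583). It was -0.27 and called lower without replicate 1 (adjusted p = 0.0302), but 0.41 and called higher with total-count scaling (adjusted p = 0.02).

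Macrophage markers were mostly higher in the treated animals. Of the 12 listed, 10 were called higher, against 34.2% of all tested genes, and none lower, and their summed level was 108.3 to 252.5 CPM in controls and 313 to 1078 CPM in treated animals, lowest in replicate 1. The most changed were these: Cd68, a lysosomal macrophage protein, rose from 2.71 ± 1.04 to 38.7 ± 3.65 CPM, and Gpnmb, a glycoprotein of lipid-laden and osteoclast-like macrophages, rose from 0.265 ± 0.192 to 31.1 ± 4.93 CPM. Of the 12, Csf1r and Adgre1 were not called (log2 fold changes 0.27 and 1.33). Without replicate 1 all 12 were called higher, where 5713 of 16589 tested genes were. With total-count scaling all 12 were also called higher, where 56.4% of tested genes were. Gpnmb was highest in replicate 1, unlike the sum. The 6 osteoclast markers did not move together: Ctsk and Mmp9 were called higher (1.51 and 2.19), Acp5 was called lower (-1.33), and Ocstamp, Dcstamp and Oscar were too low to be tested. Without replicate 1, Dcstamp was tested and called higher, from a control mean of 0.0144 CPM, and Ocstamp was tested and not called (adjusted p = 0.0635). The part of macrophages in the level of Atp6v0d2 was not tested.

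**Figure D2:**
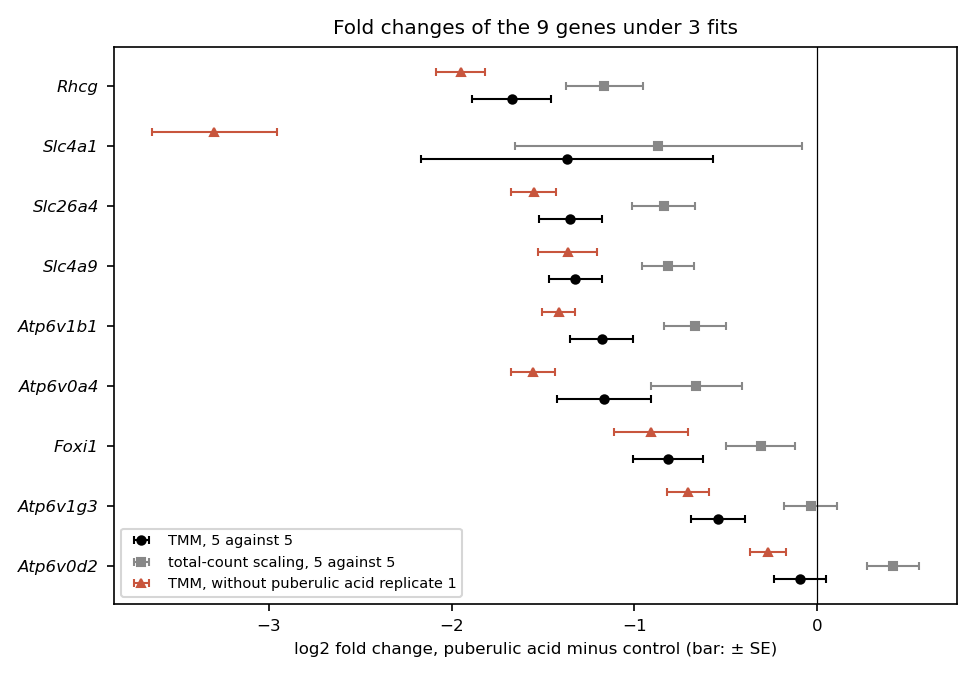
Log2 fold change of each gene (horizontal axis, ± SE) with TMM scaling of all 10 libraries (circles), with total-count scaling (squares) and with TMM scaling without puberulic acid replicate 1 (triangles). Leaving out replicate 1 moved Slc4a1 from -1.37 to -3.30, and Atp6v0d2 has values on both sides of 0.

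The chloride-bicarbonate exchanger Slc4a1 (ENSMUSG00000006574) marks the type A cell and is also the main membrane exchanger of red blood cells. It was at 38.7, 46.7, 36.7, 46.0 and 64.9 CPM in controls. In puberulic acid replicates 1 to 5 it was at 70.9, 3.20, 4.32, 2.58 and 8.95 CPM. Replicate 1 had the highest level of all 10 animals, while the other 4 treated animals were below every control. The fit of all 10 animals gave Slc4a1 a log2 fold change of -1.37 ± 0.80 (SE), not called (adjusted p = 0.151). Without replicate 1 it was -3.30 ± 0.34 (SE, adjusted p = 5.81e-06), the most negative of the 9 genes in that fit.

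Red cell transcripts also differed between the groups. The 10 erythroid markers summed to 994 to 3242 CPM in controls and 29.9 to 267 CPM in treated animals, highest in replicate 1. Of the 7 tested, 6 were called lower and 1 higher, against 31.1% and 34.2% of all tested genes. Alas2, the haem synthesis enzyme of developing red cells, was at 13.0, 8.50, 17.0, 6.10 and 21.3 CPM in controls and at 1.84, 1.27, 0.637, 1.69 and 0.188 CPM with puberulic acid. The part of blood in the Slc4a1 levels was not tested.

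The type B exchangers were lower in every treated animal. Slc26a4 (ENSMUSG00000020651), which encodes pendrin, was at 69.2, 84.8, 73.9, 77.8 and 83.1 CPM in controls and at 44.7, 27.0, 30.6, 20.02 and 30.2 CPM with puberulic acid. Replicate 1 was again the highest of the treated animals, but it was well below the lowest control. The log2 fold change was -1.35 ± 0.17 (SE, adjusted p = 2.79e-05).

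Slc4a9 (ENSMUSG00000024485), a basolateral exchanger of type B cells, was at 78.6, 56.6, 77.2, 55.6 and 77.3 CPM in controls. With puberulic acid it was at 28.7, 31.3, 32.5, 21.96 and 23.6 CPM, with replicate 1 in the middle of its group. It was the 1 member for which replicate 1 was not the highest treated animal. The log2 fold change was -1.32 ± 0.15 (SE, adjusted p = 8.29e-06), and leaving out replicate 1 changed it little, to -1.36.

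Rhcg (ENSMUSG00000030549), which encodes the channel through which collecting duct cells pass ammonia into the urine, showed the most negative log2 fold change of the 9 genes with all animals included. It was at 110, 139, 138, 141 and 164 CPM in controls and at 71.5, 37.9, 37.1, 28.5 and 42.3 CPM with puberulic acid. No treated animal reached the lowest control. The mean treated level was 31.4% of the control mean, and the log2 fold change was -1.67 ± 0.21 (SE, adjusted p = 2.77e-05). Rhcg is also made by squamous epithelia, and of 11 squamous and urothelial markers 7 were tested and 2, Krt5 and Ivl, were called higher, a share below the 34.2% of all tested genes. Krt5 rose from 0.279 ± 0.151 to 19.5 ± 3.75 CPM and Ivl from 0.0233 ± 0.0321 to 3.81 ± 0.71 CPM, while Krt4, Krt13 and Sprr3 stayed under 1 CPM in all libraries. The summed level of these 11 markers was 3.42 to 10.8 CPM in controls and 24.2 to 64.0 CPM in treated animals. Uroplakins were not called, and those of replicate 3 gave the highest sum. The part of these cells in the level of Rhcg was not tested.

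Levels of different genes can be compared only per length. On CPM per kilobase of the longest coding transcript (GENCODE M21), the control means ran from 66.3 ± 9.04 for Rhcg through 59.1 ± 8.03 for Atp6v0a4 and 51.3 ± 2.56 for Atp6v1b1 (SD, n = 5), and neighbours in this order overlapped. A gap followed to Atp6v1g3 at 30.0 ± 2.96. Slc26a4, Slc4a9, Foxi1 and Atp6v0d2 came next at 25.3, 21.9, 17.6 and 16.5, each overlapping its neighbour. Slc4a1 had the lowest mean, 10.3 ± 2.45, and did not overlap its neighbour Atp6v0d2. Its highest control (14.3) was above the lowest control of Foxi1 (11.9). With puberulic acid, Atp6v0a4 ranked highest (26.3 ± 13.3) and Rhcg ranked 3 (20.8 ± 7.88), while Atp6v0d2 moved from rank 8 to rank 5 (15.5 ± 3.82). Slc4a1 stayed last at 3.96 ± 6.54. All neighbours overlapped in the treated order. Without replicate 1 the Slc4a1 mean was 1.05 ± 0.63, and Rhcg (17.4 ± 2.76) ranked 4, below Atp6v1g3 (18.7 ± 2.73).

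Each specialised pump subunit has a widely expressed counterpart, and the ratio of both in the same library does not depend on library scaling. The log2 ratio of Atp6v1b1 to Atp6v1b2 was -1.90, -1.91, -1.81, -1.84 and -1.87 in controls and -2.16, -2.68, -2.71, -3.004 and -2.53 with puberulic acid. All treated animals lay below the tight control range. The difference was -0.75 (exact two-sided permutation p = 0.00794, the smallest 5 against 5 allows; adjusted p = 0.0238 over 6 ratios). The ratio of Atp6v0a4 to Atp6v0a1 was 2.49, 1.61, 1.48, 1.53 and 2.05 in controls and 1.38, -0.20, 0.12, -0.12 and 0.10 with puberulic acid. It too lay below the lowest control in every treated animal. The difference in group means was -1.57 on the log2 scale (exact permutation, adjusted p = 0.0238).

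The other pump ratios did not pass. The ratio of Atp6v0d2 to Atp6v0d1 ran from -1.76 to -1.41 in controls and from -1.72 to -1.02 with puberulic acid, a difference of 0.33 (exact permutation, adjusted p = 0.0952). Without puberulic acid replicate 4 it was 0.43 and passed (exact permutation, adjusted p = 0.0317). The ratio of Atp6v1g3 to Atp6v1g1 averaged -1.65 ± 0.11 in controls and -1.64 ± 0.39 with puberulic acid, a difference of 0.0026 (exact permutation, adjusted p = 0.984).

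The ratio of the type B exchangers to Slc4a1, which red blood cells also make, depended on replicate 1. The part of blood in these ratios was not tested. The log2 ratio of Slc26a4 to Slc4a1 was 0.84, 0.86, 1.01, 0.76 and 0.36 in controls and -0.67, 3.07, 2.82, 2.95 and 1.75 in puberulic acid replicates 1 to 5. Replicate 1 was below every control and the other 4 were above every control. The difference over all animals was 1.22 and did not pass (exact permutation, adjusted p = 0.181); without replicate 1 it was 1.88 (exact permutation, adjusted p = 0.0119). Slc4a9 to Slc4a1 gave 1.29 (exact permutation, adjusted p = 0.181), with replicate 1 at -1.31, the 5 controls between 0.25 and 1.07 and the other 4 treated animals between 1.40 and 3.28. Without replicate 1 that difference was 2.09 (exact permutation, adjusted p = 0.0119).

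**Figure D3:**
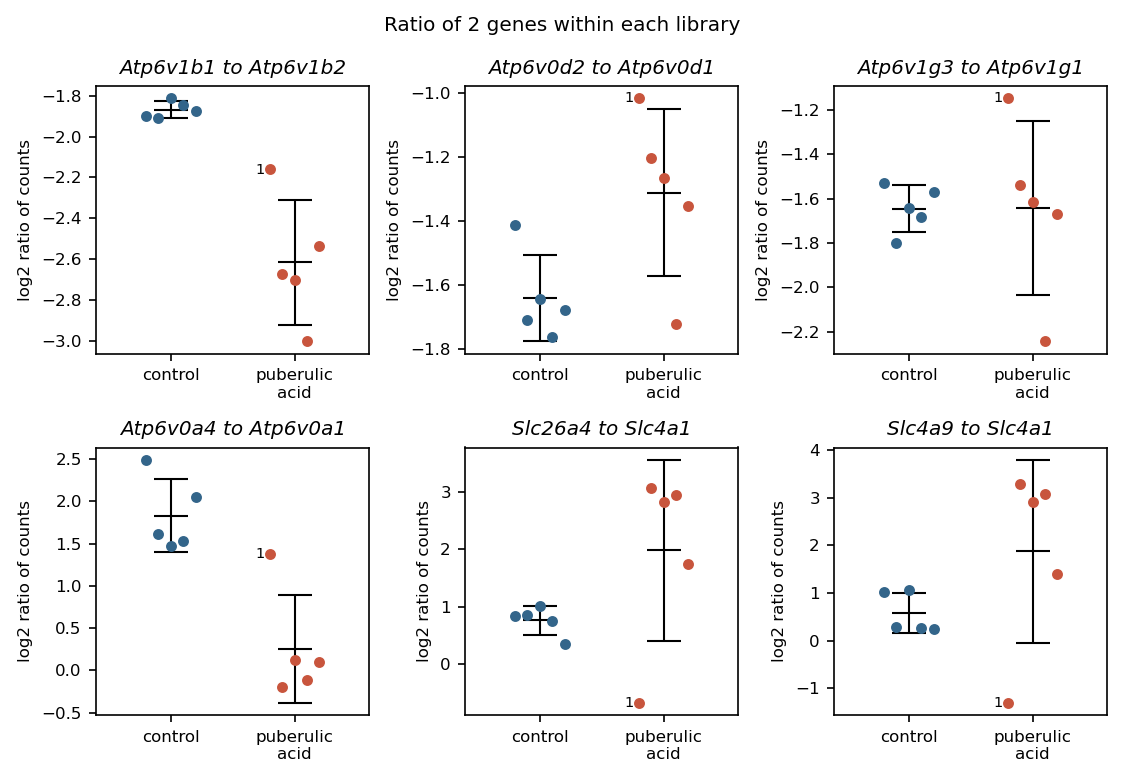
Log2 ratio of the estimated counts of the named genes within each library (vertical axes); points are animals, the long mark is the mean and the bars are ± SD. The upper left and lower left panels show no overlap between groups, and in the last 2 panels puberulic acid replicate 1, marked 1, lies on the other side of the controls from the rest of its group.

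With TMM scaling the remaining genes of the proton pump were mostly lower as well. Of 20 other subunits and accessory proteins, 14 were called lower and 3 higher, against 31.1% and 34.2% of all tested genes, with a median log2 fold change of -0.48. With total-count scaling 3 were called lower and 7 higher, against 15.5% and 56.4%, so the share called lower was then near that of all genes. Atp6v1c2, a tissue-restricted form of subunit C, fell from 31.7 ± 4.89 to 10.9 ± 4.74 CPM (log2 fold change -1.54). Its widely expressed counterpart Atp6v1c1 rose from 80.7 ± 9.43 to 136.8 ± 21.0 CPM (log2 fold change 0.76). Both kept these directions and calls with total-count scaling, at -1.03 and 1.27. Atp6v1e1 and Atp6v1d, stalk subunits, had log2 fold changes of -1.07 and -0.76 and were called lower. Tcirg1, the a3 subunit of lysosomes and osteoclasts, and Atp6v1g2 were called higher at 0.78 and 0.69, from 18.1 ± 5.57 and 2.91 ± 0.97 CPM. The Tcirg1 call was lost without any 1 of control replicates 2 to 5 or puberulic acid replicates 2 to 4 (adjusted p = 0.0587 to 0.121). The Atp6v1g2 call was lost without any 1 of control replicates 3 to 5 or puberulic acid replicates 3 and 4 (adjusted p = 0.0603 to 0.0802).

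The counterparts of the members, apart from Atp6v0a1, were called lower with TMM scaling but not with total-count scaling. Atp6v1b2 went from 374.6 ± 24.7 to 269.4 ± 26.6 CPM (log2 fold change -0.48, and 0.03 with total-count scaling). Atp6v0d1 had -0.45 (0.05 with total-count scaling) and Atp6v1g1 had -0.57 (-0.06). Atp6v0a1 had 0.29 and was not called (adjusted p = 0.0695), but it was called higher with total-count scaling, at 0.80, with upper-quartile factors, at 0.39, and without control replicate 2, at 0.35. Without puberulic acid replicate 2 it was 0.19 and not called, the lowest of the fits that left out an animal.

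**Figure D4:**
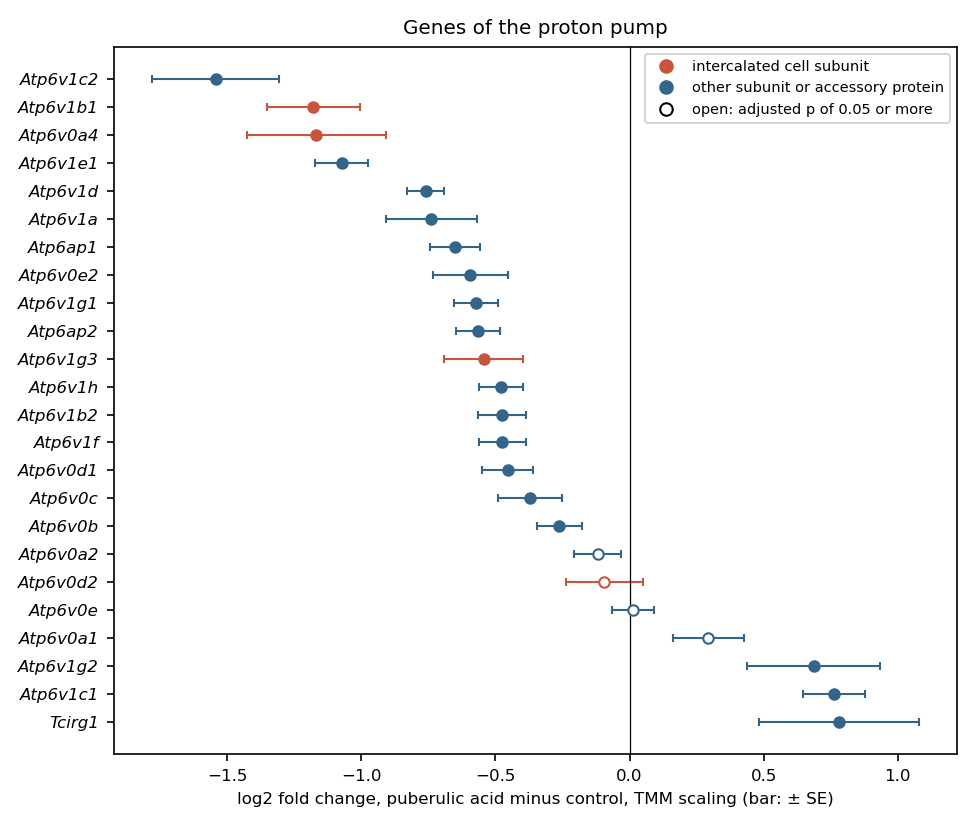
Log2 fold change of the 24 listed genes of the proton pump and its accessory proteins (horizontal axis, TMM scaling, ± SE); the 4 intercalated cell subunits are drawn in red, and open circles were not called. Atp6v1b1 and Atp6v0a4 lie near the lower end with Atp6v1c2, whereas Atp6v0d2 lies near 0.

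Other genes of intercalated cells were also lower for the larger part with TMM scaling. Of 21 listed, 20 were tested, 11 were called lower and 1 higher, against 31.1% and 34.2% of all tested genes, and the median log2 fold change was -0.88. With total-count scaling 9 were called lower and 5 higher, against 15.5% and 56.4%. Insrr, the alkali-sensing insulin receptor-related receptor, fell from 26.7 ± 4.88 to 5.10 ± 2.63 CPM (log2 fold change -2.39), Hmx2, a homeobox factor, from 10.5 ± 3.76 to 3.19 ± 0.45 CPM (-1.71), and Rhbg, the basolateral ammonia channel, from 56.4 ± 7.54 to 20.1 ± 8.16 CPM (-1.48). P2ry14, a nucleotide sugar receptor, was called higher at 0.70 (adjusted p = 0.038) from 2.68 ± 1.02 CPM, a call lost without any 1 of control replicates 2, 3 and 5 or puberulic acid replicates 1, 4 and 5 (adjusted p = 0.0829 to 0.108). The P2ry14 call was also lost in the edgeR fit with no filter (adjusted p = 0.0554). Slc4a8, a sodium-dependent exchanger, and Avpr1a, the V1a vasopressin receptor, had 0.61 and 0.46 and were not called (adjusted p = 0.0508 and 0.0594). Both lay near the threshold: Slc4a8 passed in 9 of the 18 alternative fits, at 1.12 with total-count scaling, and Avpr1a in 4, at 0.97 with total-count scaling. Among the fits that left out an animal, Slc4a8 passed without control replicate 5 or puberulic acid replicate 1 or 5, and Avpr1a without puberulic acid replicate 2 or 4. Over these fits Slc4a8 ran from 0.42 to 0.81, and Avpr1a from 0.26, without puberulic acid replicate 1, to 0.52.

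Aqp6 and Oxgr1 were singled out after their values were seen, because they resemble Slc4a1. Aqp6, a channel of intracellular vesicles in type A cells, was at 111.8 CPM in replicate 1, above all controls (61.8 to 104 CPM), and at 29.1 to 45.2 CPM in the other 4 treated animals. Its log2 fold change of -0.56 was not called (adjusted p = 0.178), and it was -1.13 without replicate 1 (adjusted p = 0.000186). Oxgr1, an oxoglutarate receptor, was at 28.4 CPM in replicate 1, within the controls (24.8 to 32.6 CPM), and at 6.72 to 11.7 CPM in the others. The 7 loop and distal tubule markers did not place replicate 1 in 1 way. Slc12a1, the salt transporter of the thick ascending limb, was at 779 CPM in replicate 1, within the controls (429 to 954 CPM), and at 140 to 324 CPM in the other 4 treated animals. Slc12a3, the salt transporter of the distal tubule, was at 522 CPM in replicate 1, also within the controls (401 to 610 CPM). Umod, which encodes uromodulin, was at 4719 CPM there, above every control (2208 to 4050 CPM). The calcium-binding protein genes Calb1 and Pvalb were at 294.7 and 5.03 CPM there, below every control (lowest 360.1 and 19.1 CPM).

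Principal cells are the neighbours of intercalated cells in the collecting duct. Of 10 listed principal cell genes, 8 were called lower, against 31.1% of all tested genes, and none higher, with a median log2 fold change of -0.91, and with total-count scaling 5 were called lower, against 15.5%. The water channels Aqp3, Aqp4 and Aqp2 were called lower, with log2 fold changes of -1.90, -1.56 and -1.36. The summed level of the list was 650.5 to 940.0 CPM in controls and 333.6 to 404.8 CPM in treated animals. For the 9 intercalated cell genes the corresponding sums were 724.6 to 856.2 CPM in controls and 239.6 to 586.6 CPM in treated animals. In both lists replicate 1 had the highest treated sum; whether the lists differ from each other was not tested.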

How the data were processed

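Polyadenylated kidney RNA was sequenced by the authors with a directional kit, per the labels. The submitters' processing notes name fastp 0.22.0, FastQC 0.12.1, MultiQC 1.28, Salmon 1.10.3, DESeq2 and build GRCm39; the annotation is not given in the sources used here. The authors deposited 1 table of estimated counts for each gene and library, which need not be whole. Columns were matched to samples by name; 10 columns were not used. Symbols came from GENCODE M21 for 51344 of 55822 identifiers.

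Counts were rounded, filtered with filterByExpr and tested with edgeR 4.0.16 (limma 3.58.1, R 4.3.3; TMM, quasi-likelihood, robust off) on 5 control against 5 puberulic acid libraries, with Benjamini-Hochberg adjustment over 16266 genes and calls at 0.05. The standard error is the log2 fold change over the square root of F. The fit was tested on simulated data. Log2 ratios used a pseudocount of 0.5 counts and exact permutation over all assignments of 5 against 5, adjusted over 6 ratios. Each numbered library was taken as 1 mouse, which the labels do not state outright; p-values measure only the spread between these samples, which may be technical. A floor of 3 counts is 0.0964 to 0.195 CPM and covers counting error only. The TMM factor ranged over 0.827 to 0.848 (control) and 1.17 to 1.26 (puberulic acid).

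The members, pairs and lists were chosen with earlier results of these data known. Named were all members and counterparts, up to 3 genes at each end of the pump, other intercalated and principal cell lists, the 6 genes most like the members, and markers used as checks; Aqp6, Oxgr1 and the markers of other cell types were picked after their values were seen. The 10 lists were the members, other pump genes, other intercalated, principal, loop and distal tubule (4 of 7 called lower, against 31.1% of all tested genes), proximal tubule, macrophage, osteoclast (2 of 3 tested higher, 1 lower, against 34.2% and 31.1%), erythroid, and squamous and urothelial genes. With total-count scaling 2 of the 7 loop and distal tubule genes were called lower and 3 higher, against 15.5% and 56.4% of all tested genes. Alternatives were RLE, total-count and upper-quartile scaling, no filter, 1 CPM in 5 libraries, a robust fit, DESeq2 1.42.0, a replicate block and leaving out each animal.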

Additional observations from a re-analysis of the deposited data

Results flagged for a closer look

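The level of each of the 9 genes and each of the 6 ratios was searched, in each group of 5, for an animal separated from all others by more than 0.71 of the group's range. Of 30 groups of values 4 held such an animal, where chance gives about 1 in 20, or 1.5 if the values were independent, which they are not. All 4 concern puberulic acid replicate 1 as the highest of its group. Its Slc4a1 level was 70.9 CPM, with a gap of 0.907 of the range. Its Atp6v0a4 level was 164.7 CPM (gap 0.84) and its Atp6v1b1 level 70.2 CPM (gap 0.717). Its log2 ratio of Atp6v0a4 to Atp6v0a1 was 1.38 (gap 0.797). The cause was not tested.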

How the results depend on the processing

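Of the 9 genes, Atp6v1b1, Atp6v0a4, Slc26a4, Slc4a9 and Rhcg kept their direction and call in all 18 alternative fits. Scaling to total counts called 9179 genes higher and 2526 lower, against 5564 and 5058, and turned the log2 fold changes of Atp6v0d2 (0.41), Atp6v1b2 (0.033) and Atp6v0d1 (0.053). It also ended the calls of Atp6v1g3 and Foxi1. Adjusted p-values of Slc4a1 ran from 0.148 to 0.336 over the other scalings and filters, and DESeq2 gave none for it.

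Leaving out each animal in turn gave 10104 to 11108 genes called (5103 to 5842 higher and 4881 to 5395 lower) and 7 to 9 members called lower. The ratio differences then ran from -0.86 to -0.65 for Atp6v1b1, from -1.85 to -1.41 for Atp6v0a4, from 0.25 to 0.43 for Atp6v0d2, from -0.12 to 0.15 for Atp6v1g3 (below 0 without control replicate 2 or 4 or puberulic acid replicate 1, 2 or 3), from 0.95 to 1.88 for Slc26a4 and from 0.94 to 2.09 for Slc4a9.

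Same-numbered animals share only a number: their deviations correlated at -0.172 to 0.039. With the replicate block 10325 genes and 8 members were called. Slc4a1, Aqp6 (adjusted p = 0.0493) and Atp6v0a1 (0.0388) gained a call, and Tcirg1 (0.1) and Atp6v1g2 (0.0559) lost theirs. The paired ratio differences under the block, -0.75 for Atp6v1b1 and -1.57 for Atp6v0a4, had adjusted p-values of 0.125; that exact test cannot go below 0.0625 before adjustment. A pseudocount of 3 counts changed no call of a ratio.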

Other observations

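The genes whose levels followed the 9 members most closely were sought by the correlation of each gene's deviation from its group mean, on the log2(CPM + 1) scale, with the mean deviation of the members over the 10 libraries, among 14808 genes averaging 1 CPM or more. The 6 highest outside the lists were Fmo2, a flavin monooxygenase (r = 0.991), Slc43a2, an amino acid transporter (0.9897), the transcript 4933431E20Rik (0.983), Slc5a12, a lactate transporter of the proximal tubule (0.979), Isca1, an iron-sulfur cluster assembly factor (0.975), and Spink8 (0.972). In all 6 puberulic acid replicate 1 was the highest treated animal. Fmo2 was at 442.9 CPM on average in controls, 94.3 CPM in replicate 1 and at most 45.8 CPM in the other treated animals. The correlation is a description over 10 libraries and leans on replicate 1, whose mean deviation was 0.82 where the other 9 ran from -0.51 to 0.20.

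Of the 19 other intercalated cell genes ranked, Oxgr1, Rhbg, Aqp6 and Car12 were among the 148 genes of the top 1%. Without replicate 1, a setting chosen after seeing the data, none of the 19 was, and Fmo2 and Slc43a2 ranked 3 and 5 (r = 0.949 and 0.941). In that setting Slc5a12, 4933431E20Rik, Spink8 and Isca1 ranked 15, 22, 42 and 76.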
